A study of Mus musculus with 2 samples.

Results

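Collagens and the components of the basement membrane, the sheet of matrix under endothelium and around brain vessels, were examined in brain mononuclear cells of CD47 KO and WT mice. The set holds every gene on the array named as a collagen chain (Col) or a laminin chain (Lama, Lamb, Lamc), together with *Fn1*, *Nid1*, *Nid2*, *Hspg2* and *Agrn*. This gave 57 of the 18193 genes with a probe set of their own, read by 111 probe sets, which are groups of short probes that match the transcript of a gene. The genes fell into 11 fibrillar collagens, 20 basement membrane genes, 25 other collagens and fibronectin (*Fn1*).

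The CD47 KO sample was RNA of 6 male CD47 null mice aged 12 to 16 wks, and the WT sample was RNA of 7 male wild-type mice aged 10 to 15 wks. Cells came from enzymatically digested whole brain and were taken from the boundary between the dense layers of a Percoll gradient. Each pool was amplified from 20 ng and hybridised to 1 array, so differences have neither replicates nor a p-value, and the spread among mice is unknown. Genotype cannot be told apart from the pool, the preparation or the difference in age. CD47 is the ligand of SIRPα, the receptor through which microglia are held in check. *Cd47* itself had a signal of 1688 in CD47 KO cells and 5816 in WT cells, and its 5 probe sets had Log2 ratios (CD47 KO over WT) from -1.86 to -1.45.

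Fibrillar collagens assemble from 3-chained helices into the cables of connective tissue. In the brain they are made mainly by fibroblasts of the meninges and of the space around vessels. Basement membranes are built on a network of type IV collagen and a network of laminin, which nidogens and the proteoglycans perlecan and agrin connect. Endothelial cells, pericytes, smooth muscle cells and astrocytes all contribute to the vascular basement membrane. Microglia and other leukocytes are not their main source.

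Signals are MAS5 values on a linear scale of brightness, which the authors' software set to the same trimmed mean (500.002) on both arrays. Where a gene has several probe sets, its values are those of the one that was brightest on average over the arrays. Since dim probe sets scatter widely, genes are counted when the geometric mean of their CD47 KO and WT signals reached 149, the median of that mean over all probe sets. By this rule 25 of the 57 genes were bright enough to count and 32 were not. Probe sets of the same gene differed in their Log2 ratio by an SD of 0.56 between this threshold and the upper quartile of brightness, and of 0.37 above it. That is the only measure of error within these data.

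Among the 25 genes, 15 were lower in CD47 KO cells and 10 were higher, or 60% lower against 49.7% of all 11016 genes that reached the threshold. Their Log2 ratios had a median of -0.19, against 0.00 over all genes. More than 2-fold lower were *Col1a2*, *Col4a2* and *Col8a1*, 3 of 25 genes or 12% against 3.72% of all genes. More than 2-fold higher was *Col19a1*, 1 of 25 genes or 4% against 2.21% of all genes. *Col19a1* reached the threshold through its CD47 KO signal of 562, its WT signal being 116. With the array median required on both arrays, no gene of the set was higher past 2-fold. Among the 8 genes in the upper quartile of brightness, *Col1a2* and *Col4a2* passed 2-fold downwards, 2 of 8 or 25% against 1.08% of all genes that bright. That quartile began at a geometric mean of 526, which *Col4a2* reached through its WT signal (313 in CD47 KO cells and 963 in WT cells). *Col27a1* and *Col9a3* were likewise below 526 in CD47 KO cells and above it in WT cells. None of the 8 passed 2-fold upwards (0.609% of all genes), 6 of the 8 were below 0 (45.8% of all genes), and their median was -0.52. Between the threshold and that quartile 1 of 17 genes was lower past 2-fold and 1 higher, against 7.4% and 4.43% of all genes there. The lower and higher counts over all genes, 410 and 243, became 278 and 384 when both arrays were centred on their medians, a step that moved the Log2 ratio of every gene, and so each median, up by 0.14. *Col3a1* at -0.95 and *Nid1* at -0.91 lay closest outside the 2-fold limit on the lower side, and *Col1a2* at -1.11 lay closest inside it. Fewer cells of a type and less RNA per cell cannot be told apart in such pools.

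**Figure D1:**
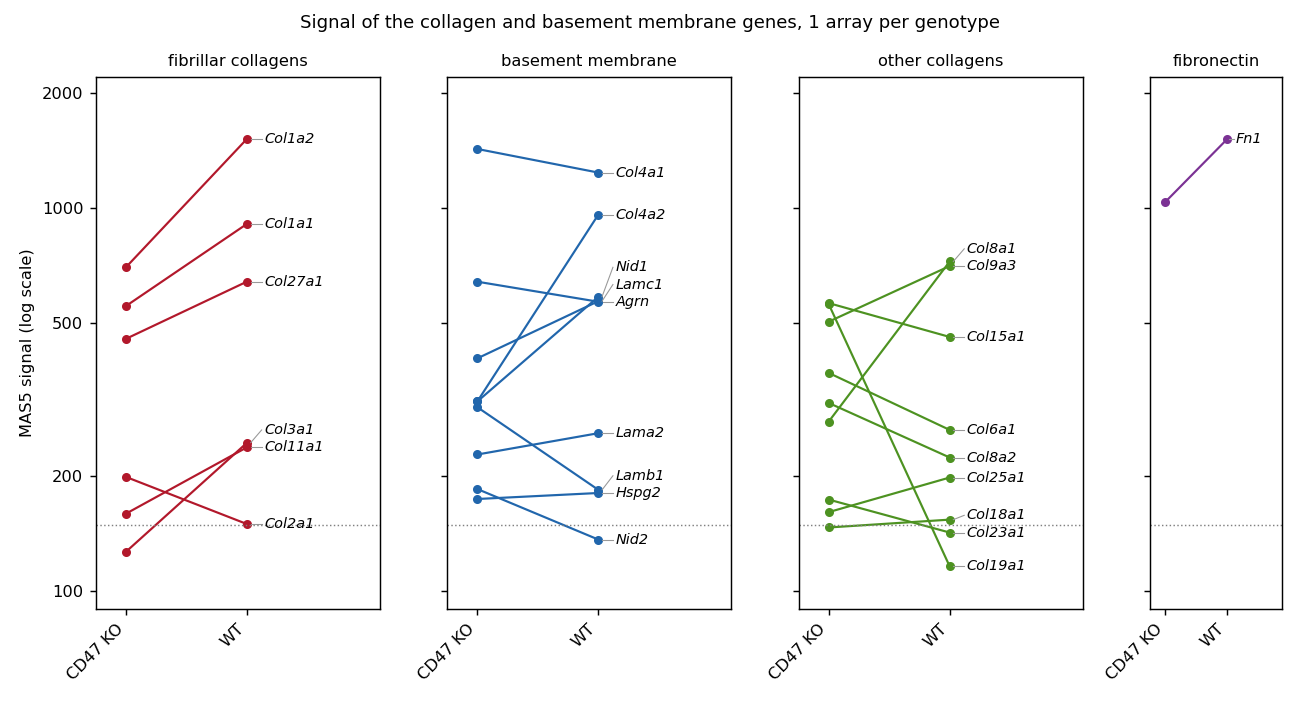
MAS5 signal (log scale) of the 25 genes at or above the signal threshold in the CD47 KO and the WT array, a line joining the values of each gene, with 1 array per genotype and so no error bars. Of the 6 fibrillar collagens 5 were lower in CD47 KO cells, *Col4a2* parts from *Col4a1*, and *Col19a1* crosses the other lines with 562 in CD47 KO cells and 116 in WT cells; the dotted line marks the threshold of 149.

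Fibrillar collagens were mostly lower in CD47 KO cells, though only *Col1a2* passed 2-fold, 1 of 6 or 16.7% against 3.72% of all genes. Of the 11 genes 6 reached the threshold, 5 of them lower and 1 higher in CD47 KO cells, with a median Log2 ratio of -0.64. That median stayed between -0.74 and -0.51 under the 11 alternative settings. *Col1a1* and *Col1a2* encode the α1 and α2 chains of type I collagen, the most abundant collagen of the body. *Col1a2* had a signal of 702 in CD47 KO cells and 1519 in WT cells, a Log2 ratio of -1.11. A dimmer *Col1a2* probe set had 88.5 in CD47 KO cells and 273 in WT cells (-1.62), and one below the threshold had -0.49. *Col1a1* had 556 in CD47 KO cells and 911 in WT cells (-0.71). The other probe set of *Col1a1* had 446.5 in CD47 KO cells, against 955 in WT cells (-1.10). All 5 probe sets of type I collagen were thus lower in CD47 KO cells. With the arrays centred on their medians, *Col1a2* was just short of 2-fold at -0.98.

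*Col3a1*, the type III collagen of vessel walls that is laid down with type I, had 127 in CD47 KO cells and 244 in WT cells, a Log2 ratio of -0.95. *Col27a1*, a fibrillar collagen of cartilage, had 456 in CD47 KO cells and 644 in WT cells (-0.50), with -0.08 on its other probe set. *Col11a1*, which takes part in the start of cartilage fibrils, had 159 in CD47 KO cells and 238 in WT cells (-0.58). A dim *Col11a1* probe set had 30.7 in CD47 KO cells and 5.39 in WT cells (2.51). *Col2a1*, the main collagen of cartilage, was higher, with 199 in CD47 KO cells and 150 in WT cells (0.41). The chains of type V collagen, which set fibril width, were all below the threshold. *Col5a1* had 118 in CD47 KO cells and 165 in WT cells, *Col5a2* had 59.0 in CD47 KO cells and 215 in WT cells, and *Col5a3* had 47.1 in CD47 KO cells and 146 in WT cells. The Log2 ratios of these 3 were -0.48, -1.87 and -1.63.

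The sequence just before the start of a gene is shown for *Col1a2* and *Col3a1*, the most shifted fibrillar collagens at or above the threshold, and for *Col8a1*, since all 3 were lower in CD47 KO cells. The windows are the 250 bases upstream of the RefSeq start (build GRCm38.p6), at chr6:4505368-4505617 on the plus strand, chr1:45311288-45311537 on the plus strand and chr16:57754738-57754987 on the minus strand. Capitals mark 3 short promoter motifs, searched on both strands: the TATA box TATAAA, the CCAAT box CCAAT and the GC box GGGCGG. In Col8a1 the GC box stands on the opposite strand, as CCGCCC.
Col1a2: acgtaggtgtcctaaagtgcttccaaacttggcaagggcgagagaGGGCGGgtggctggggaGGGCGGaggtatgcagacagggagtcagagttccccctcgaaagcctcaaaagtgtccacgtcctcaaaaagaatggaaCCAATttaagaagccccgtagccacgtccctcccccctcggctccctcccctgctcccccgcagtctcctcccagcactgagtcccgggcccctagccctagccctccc
Col3a1: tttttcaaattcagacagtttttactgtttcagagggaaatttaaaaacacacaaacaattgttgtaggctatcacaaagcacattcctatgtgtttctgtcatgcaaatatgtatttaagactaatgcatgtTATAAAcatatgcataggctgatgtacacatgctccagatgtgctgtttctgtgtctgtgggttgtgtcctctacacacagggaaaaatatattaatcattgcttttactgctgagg
Col8a1: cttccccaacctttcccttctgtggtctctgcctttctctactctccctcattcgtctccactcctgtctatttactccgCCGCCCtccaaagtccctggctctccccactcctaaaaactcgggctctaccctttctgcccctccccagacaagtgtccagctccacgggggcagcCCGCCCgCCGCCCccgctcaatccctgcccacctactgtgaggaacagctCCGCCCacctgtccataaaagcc
The windows shown did not share a motif set. Those of *Col4a2* and *Col19a1*, also past 2-fold, overlap transcribed sequence and were left out. The *Col1a2* window held 1 CCAAT box and 2 GC boxes at a GC content of 62%. The *Col3a1* window held 1 TATA box at a GC content of 35.2%. The *Col8a1* window held 4 GC boxes at 60.8%. Of 32817 such windows in the RefSeq table, 12.4% held a TATA box, 33.8% a CCAAT box and 32.7% a GC box. Windows were found for 41 of the 57 collagen and basement membrane genes, and these 46 windows held them in 10.9%, 32.6% and 58.7% of cases. A match is a run of letters and not evidence of binding.

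**Figure D2:**
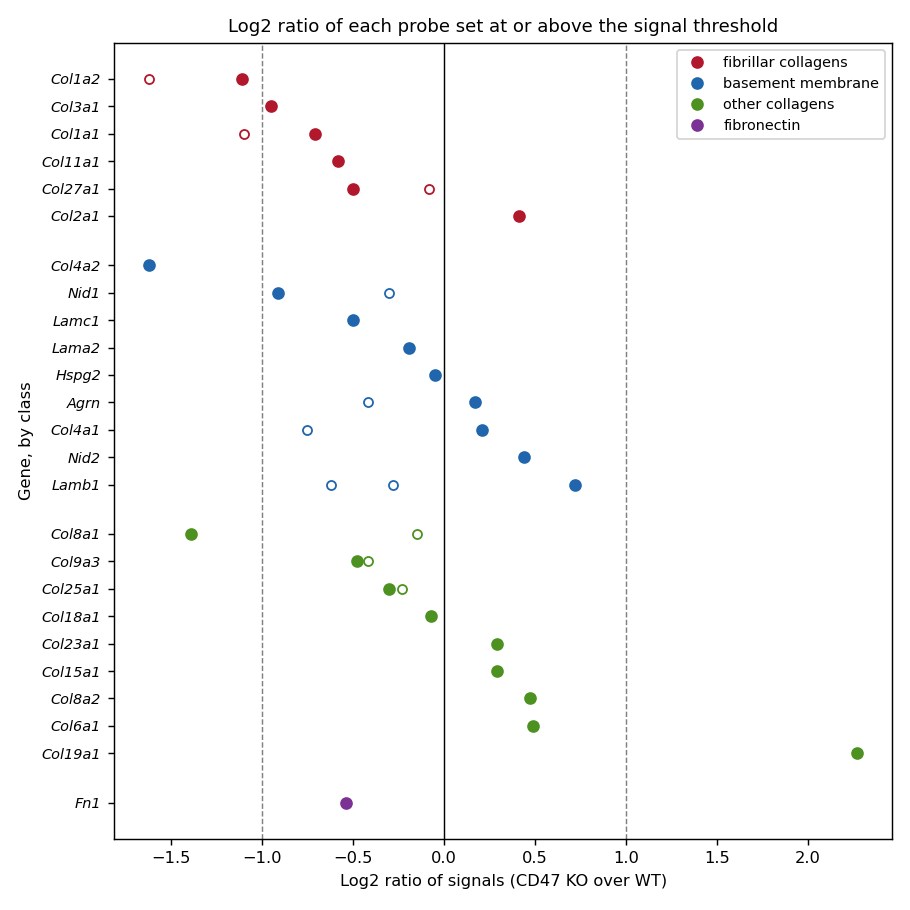
Log2 ratio of signals (CD47 KO over WT) of each probe set at or above the signal threshold, 1 row per gene, grouped and coloured by class; filled points are the brightest probe set of the gene and open points its others, and dashed lines mark 2-fold. *Col1a1*, *Col1a2*, *Col9a3* and *Lamc1* (whose points coincide at -0.50) lie on the left on all their probe sets, while those of *Lamb1*, *Col4a1* and *Agrn* fall on both sides of 0.

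Basement membrane genes were divided in direction. Of the 20 genes 9 reached the threshold, 5 lower and 4 higher, with a median Log2 ratio of -0.05 that was between 0.06 and 0.08 with median centring, loess or quantile normalization. *Col4a1* and *Col4a2* encode the α1 and α2 chains of the type IV collagen present in all basement membranes, and lie next to each other on chromosome 8. *Col4a2* had a signal of 313 in CD47 KO cells and 963 in WT cells on its only probe set, a Log2 ratio of -1.62. *Col4a1* had 1428 in CD47 KO cells and 1239 in WT cells (0.21) on its brighter probe set, and 467.5 in CD47 KO cells and 784 in WT cells (-0.75) on the other. The partner chains were therefore apart on the brighter probe set and on the same side of 0 on the dimmer one. The mean of both *Col4a1* probe sets was -0.27. The chains of the α3, α4, α5 and α6 networks were all below the threshold. Among them *Col4a3* had 27.6 in CD47 KO cells and 233 in WT cells (-3.07), or -0.80 on its other probe set, while *Col4a4*, *Col4a5* and *Col4a6* had -0.04, -0.39 and 0.04.

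Laminins are trimers of 1 α, 1 β and 1 γ chain. Of the 10 chains *Lama2*, *Lamb1* and *Lamc1* reached the threshold. *Lamc1*, the γ1 chain of most laminins, had 405.5 in CD47 KO cells and 572 in WT cells, and its other probe set had 340 in CD47 KO cells and 482 in WT cells, both with a Log2 ratio of -0.50. *Lama2*, the α2 chain of muscle and of the glial side of brain vessels, had 227 in CD47 KO cells and 259 in WT cells (-0.19). *Lamb1*, the β1 chain, had 302 in CD47 KO cells and 184 in WT cells (0.72) on its brightest probe set, whose name marks it as possibly matching several transcripts. Its other probe sets at or above the threshold had -0.28 and -0.62, so the direction of *Lamb1* depended on the probe set. The 7 dimmer laminin chains were all lower on their brightest probe sets, from -0.28 for *Lama4* to -5.64 for *Lama5*, whose next probe set had 24.8 in CD47 KO cells and 19.8 in WT cells (0.32). Their highest signal on either array was 171, and 57.3% of all genes below the threshold were lower. *Lama1*, *Lamc3* and *Lama5* were past 2-fold downwards, 3 of 7 or 42.9% against 25.2% of all genes below the threshold. The CD47 KO signals of *Lamc3* and *Lama5* were 4.56 and 2.14, against 110 and 107 in WT cells.

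The linkers of the laminin and collagen networks did not move together. *Nid1* (nidogen-1) had 313 in CD47 KO cells and 587 in WT cells, a Log2 ratio of -0.91, and -0.30 on its next probe set. *Nid2* (nidogen-2) had 185 in CD47 KO cells and 136 in WT cells (0.44). *Hspg2*, encoding perlecan, had 174 in CD47 KO cells and 180 in WT cells (-0.05, and 0.08 after median centring). A dimmer *Hspg2* probe set had 68.6 in CD47 KO cells and 148 in WT cells (-1.11). *Agrn*, encoding agrin, which also organizes the neuromuscular junction, had 643 in CD47 KO cells and 570 in WT cells (0.17), with -0.42 on its other probe set. *Fn1*, encoding fibronectin, a matrix and plasma glycoprotein that cells bind through integrins, had 1038 in CD47 KO cells and 1513 in WT cells (-0.54). A *Fn1* probe set below the threshold had 95.5 in CD47 KO cells and 40.1 in WT cells (1.25).

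The other collagens were split, with 1 gene past 2-fold in each direction. Of the 25 genes 9 reached the threshold, 4 lower and 5 higher. Each direction past 2-fold was thus 11.1%, against 3.72% lower and 2.21% higher of all genes. The gene that was higher counted through its CD47 KO signal, its WT signal being below the threshold. The median Log2 ratio was 0.29, and lay between -0.48 and 0.42 under the alternative settings. *Col19a1*, which encodes a collagen of the FACIT kind that sits on fibrils or near basement membranes, had 562 in CD47 KO cells and 116 in WT cells, a Log2 ratio of 2.27. Its other probe sets were dim, with 59.6 in CD47 KO cells and 63.5 in WT cells (-0.09) on the brighter of them and 48.0 in CD47 KO cells and 42.2 in WT cells (0.19) on the other. The difference was thus read by a single probe set, at 1.95 to 2.41 under the alternative settings that kept the gene. *Col8a1*, a network-forming collagen of vessel walls and corneal endothelium, had 277 in CD47 KO cells and 726 in WT cells (-1.39). Its next probe set had 224 in CD47 KO cells and 248 in WT cells (-0.15) and a dim one had -1.01, and the mean of its probe sets at or above the threshold was -0.77. *Col8a2*, its partner chain, had 310 in CD47 KO cells and 223 in WT cells (0.47).

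*Col6a1*, a chain of the type VI collagen of beaded filaments, had 371 in CD47 KO cells and 264 in WT cells (0.49). Its neighbour on chromosome 10, *Col6a2*, was below the threshold with 76.0 in CD47 KO cells and 236 in WT cells (-1.63), or -0.09 on its other probe set. *Col9a3*, a FACIT collagen of cartilage fibrils, had 506 in CD47 KO cells and 706 in WT cells (-0.48), and -0.42 on the next probe set. *Col15a1* and *Col18a1* encode collagens of the basement membrane zone, the second of them the precursor of endostatin. *Col15a1* had 565 in CD47 KO cells and 461 in WT cells (0.29), and *Col18a1* had 147 in CD47 KO cells and 154 in WT cells (-0.07, and 0.07 after median centring). A *Col18a1* probe set just below the threshold had 167 in CD47 KO cells and 127.5 in WT cells (0.39). Counting *Col15a1* and *Col18a1* with the basement membrane genes left the median of that class at -0.05. The transmembrane collagens *Col25a1*, found in amyloid plaques, and *Col23a1* had -0.30 and 0.29. Dim *Col23a1* probe sets had -1.97 and 0.32.

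**Figure D3:**
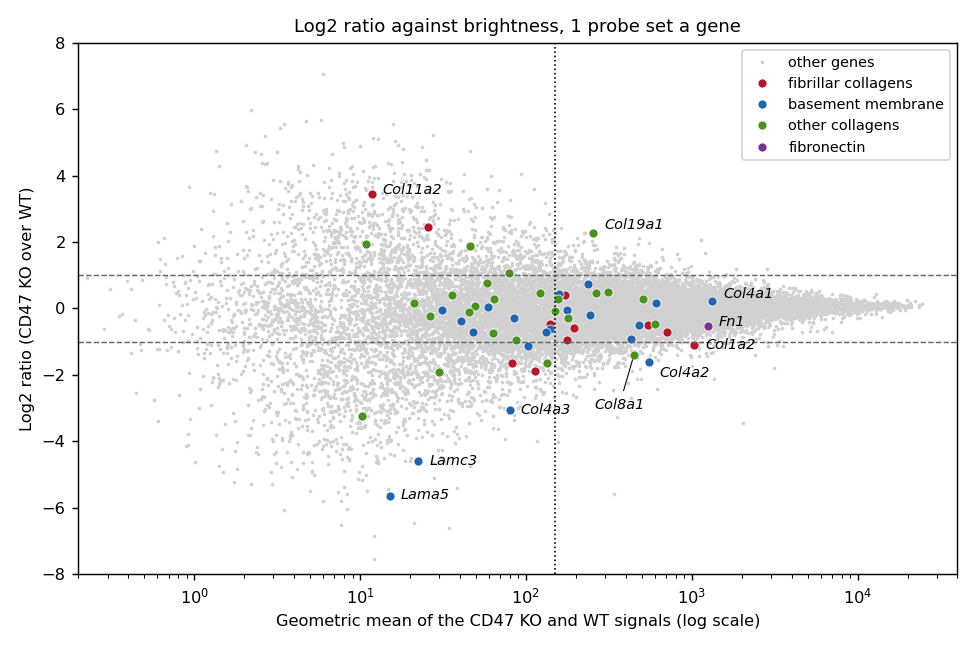
Log2 ratio (CD47 KO over WT) against the geometric mean of both signals (log scale), 1 probe set a gene, for collagen and basement membrane genes (coloured by class) and all other genes (grey); the dotted line marks the signal threshold of 149 and dashed lines mark 2-fold. The scatter widens to the left, where *Lama5* (-5.64), *Lamc3* (-4.60) and *Col11a2* (3.44) lie, and on the right *Col4a2*, *Col8a1*, *Col1a2* and *Col19a1* stand outside the dashed lines.

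Of the 32 genes below the threshold 20 were lower and 12 higher in CD47 KO cells, with a median of -0.34 against -0.20 over all 7177 genes that dim. Past 2-fold 9 were lower and 5 higher, or 28.1% and 15.6%, against 25.2% and 17.4% of all genes below the threshold. By class, 10 of the 11 dim basement membrane genes were lower (57.3% of all dim genes were), as were 3 of the 5 dim fibrillar collagens and 7 of the 16 other collagens. The highest ratios were those of *Col11a2* (38.65 in CD47 KO cells and 3.56 in WT cells) and *Col24a1* (59.7 in CD47 KO cells and 11.02 in WT cells), both fibrillar chains whose WT signals lay near the floor of the array. With no threshold, 12 of the 57 genes were lower and 6 higher past 2-fold, against 12.2% and 8.18% of all 18193 genes.

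Of the 25 genes 11 had more than 1 probe set at or above the threshold. In 8 of them (*Col1a1*, *Col1a2*, *Col27a1*, *Col8a1*, *Col9a3*, *Col25a1*, *Lamc1* and *Nid1*) all such probe sets were below 0, in none were all above 0, and in *Agrn*, *Col4a1* and *Lamb1* the sign differed. The widest gaps were 1.34 for *Lamb1*, 1.24 for *Col8a1* and 0.95 for *Col4a1*, and the smallest was 0.01 for *Lamc1*. Of the genes next to each other on a chromosome, *Col4a1* and *Col4a2* alone both reached the threshold. In the pairs on chromosome 1, at least 1 gene was below it, so their ratios were not compared. *Col3a1* and *Col5a2* had -0.95 and -1.87, *Col4a3* and *Col4a4* had -3.07 and -0.04, and *Col9a1* and *Col19a1* had 0.17 and 2.27.

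Most genes that process collagen chains were slightly higher in CD47 KO cells. Of 26 listed genes with a probe set 16 reached the threshold, 11 higher and 5 lower, with a median Log2 ratio of 0.10. Past 2-fold 2 were lower (12.5%, against 3.72% of all genes) and none higher. *Serpinh1*, which encodes Hsp47, the chaperone of collagen in the endoplasmic reticulum, had 838 in CD47 KO cells and 1922 in WT cells (-1.20) on its brighter probe set. On the other it had 282 in CD47 KO cells and 288 in WT cells (-0.03), so that the mean was -0.61. *P3h4*, which encodes a partner of the enzymes that hydroxylate collagen, had 177 in CD47 KO cells and 416 in WT cells (-1.23). *Mia3*, which loads collagen into export vesicles, had 1521 in CD47 KO cells and 928 in WT cells (0.71), against -0.31, -0.06 and 0.01 on its other probe sets. *Adamts3*, a protease that trims procollagen, had 274 in CD47 KO cells and 182 in WT cells (0.59). The subunits of prolyl 4-hydroxylase that were brightest, *P4hb* and *P4ha1*, had 0.07 and 0.46.

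Of 17 genes with a probe set for receptors of collagen and laminin or for their complexes, 9 reached the threshold, 7 higher and 2 lower, with a median of 0.08. Past 2-fold 1 of the 9 was higher (2.21% of all genes) and none lower (3.72% of all genes). *Sgcb*, encoding a sarcoglycan of the dystroglycan complex, had 602 in CD47 KO cells and 288.5 in WT cells (1.06), while its other probe sets had -0.32 and -0.68. The ratio of *Sgcb* was short of 2-fold at 0.97 with the 25th percentile of signal added to both arrays, and 0.02 as a mean over probe sets. *Mrc2*, an endocytic receptor of collagen, had 0.61, the integrin gene *Itga3* had -0.49 and *Dag1*, encoding dystroglycan, had -0.48. The integrin genes *Itgb1* and *Itga6* were bright on both arrays, with 0.03 and 0.08.

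Of 29 other matrix genes with a probe set 19 reached the threshold, and of these 13 were lower and 6 higher, with a median of -0.26, and 3 were lower past 2-fold (15.8%, against 3.72% of all genes). *Ogn*, which encodes the small proteoglycan osteoglycin, had 162.5 in CD47 KO cells and 522 in WT cells (-1.68), and -1.93 on its other probe set. *Mfap4*, a protein of elastic fibers, had 118 in CD47 KO cells and 301 in WT cells (-1.36), and so reached the threshold through its WT signal. *Bgn*, encoding biglycan, had 202.5 in CD47 KO cells and 495 in WT cells (-1.29), with -0.13 on its next probe set and a mean of -0.71. *Thbs1*, encoding thrombospondin-1, a secreted ligand of CD47, had 282.5 in CD47 KO cells and 539 in WT cells (-0.93), and -0.50 on its other probe set. *Sparc*, a collagen-binding glycoprotein gene that glia also express, was the brightest of the list with 13545 in CD47 KO cells and 12344 in WT cells (0.13). Above the 75th percentile of brightness, the median of this list was 0.11.

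**Figure D4:**
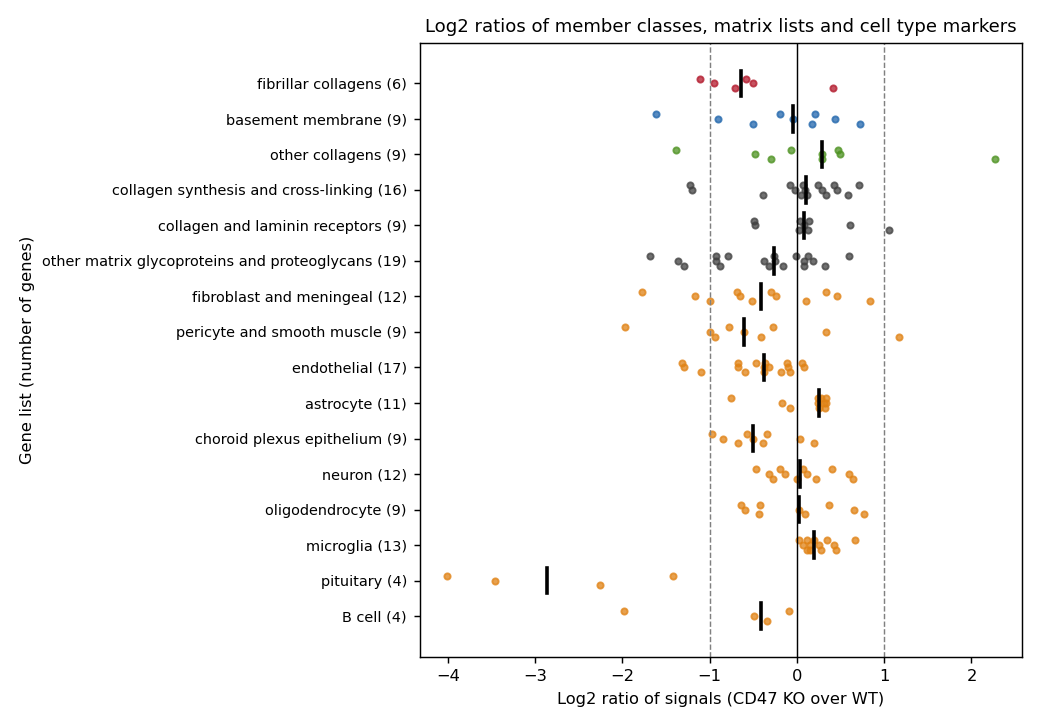
Log2 ratio (CD47 KO over WT) of each gene at or above the signal threshold in the member classes (red, blue, green), lists of related matrix genes (grey) and cell type marker lists (orange), with the number of genes in parentheses and the median as a black bar; dashed lines mark 2-fold. The fibrillar collagens (-0.64) lie to the left, as do markers of fibroblasts (-0.41), mural cells (-0.61), endothelium (-0.38) and choroid plexus (-0.50). Basement membrane genes (-0.05) lie near 0, and other collagens (0.29) and astrocyte markers (0.25) lie to the right. Pituitary genes lie farthest left (-2.86).

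Most markers of fibroblasts, of pericytes and smooth muscle, and of endothelium were lower in CD47 KO cells as well. Those of astrocytes, which also contribute to the vascular basement membrane, were higher at 8 of 11 (median 0.25). None of these markers is a collagen or basement membrane gene. Fibroblast and meningeal markers were lower at 8 of the 12 genes that reached the threshold (median -0.41), and the 16 with a probe set summed to 20617 in CD47 KO cells and 23316 in WT cells. Their brightest members were *Apod* at 0.10 and *Mgp* at -0.30, *Pdgfra* had 0.84, and *Dpt* was near 0 with 1.475 in CD47 KO cells and 2.13 in WT cells. Past 2-fold were *Aldh1a2* (-1.77) and *Slc6a13* (-1.17), both lower, 16.7% of the list against 3.72% of all genes. Pericyte and smooth muscle markers were lower at 7 of 9 (median -0.61) and summed to 7543 in CD47 KO cells and 11656 in WT cells over 15 genes. *Rgs5*, a pericyte gene, had -0.61, *Acta2*, the actin of smooth muscle, had 2002 in CD47 KO cells and 4004 in WT cells, and *Des* was near the floor at 10.3 in CD47 KO cells and 5.89 in WT cells. Past 2-fold 2 of the 9 were lower (22.2%, against 3.72% of all genes), *Cspg4* (-1.97) and *Acta2*, which lay at the limit. *Abcc9* was higher at 1.17, or 11.1% of the list against 2.21% of all genes. *Cspg4*, with 78 in CD47 KO cells and 306 in WT cells, reached the threshold through its WT signal. Endothelial markers were lower at 15 of 17 (median -0.38) and summed to 22670 in CD47 KO cells and 27097 in WT cells over 19 genes, with *Slc2a1* at -0.10 and *Itm2a* at -0.18. Past 2-fold *Esam* (-1.32), *Vwf* (-1.30) and *Ocln* (-1.10) were lower, 3 of 17 or 17.65% against 3.72% of all genes. None was higher (2.21% of all genes). *Vwf*, with 140.6 in CD47 KO cells and 345 in WT cells, reached the threshold through its WT signal.

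Choroid plexus markers were lower at 7 of 9 (median -0.50, sums of 32443 in CD47 KO cells and 35234 in WT cells), with *Ttr* at 0.03 and *Kcnj13* at -0.39. Pituitary genes were lower at 4 of 4 (median -2.86), with sums of 2501 in CD47 KO cells and 12647 in WT cells over 8 genes, *Gh* at -3.46 and *Prl* at -1.42. That median was -2.27 with no threshold, -2.26 with the array median required on both arrays, and -4.01 without probe sets named for possible cross-matches, which left 1 gene. B cell markers were lower at 4 of 4 (median -0.42), with *Cd79b* at -0.09 and *Cd79a* at -0.34. Of these *Ms4a1* alone was past 2-fold, with 117 in CD47 KO cells and 461 in WT cells (-1.98), or 25% against 3.72% of all genes. *Ms4a1* reached the threshold through its WT signal. With the array median required on both arrays, 3 B cell genes were left, with a median of -0.34. Markers of brain parenchyma had medians above 0. Astrocyte markers had a median of 0.25 with 8 of 11 higher (*Slc1a2* 0.28, *Gja1* 0.25), neuronal markers 0.04 with 7 of 12 higher (*Snap25* 0.00, *Nefl* 0.07) and oligodendrocyte markers 0.02 with 5 of 9 higher (*Cnp* 0.09, *Mbp* 0.02). The medians of the last 2 lists were below 0 under some alternative settings, down to -0.04 for neurons and -0.42 for oligodendrocytes. Microglial markers, which show that the labelled cells were present, were higher at 13 of 13 (median 0.19, *Tyrobp* 0.12, *Csf1r* 0.07). The part of these other cells in the lower collagen signals was not tested.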

How the data were processed

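RNA of brain mononuclear cells was pooled by genotype and hybridised to 1 GeneChip Mouse Genome array per pool. The deposited values are signal intensities per probe set, which the authors obtained from the scans with Expression Console, the submitters' processing notes naming MAS5. No source used here gives its version. After leaving out 2% of the values at each end, the mean was 500.002 on both arrays. Detection calls were not used here, and no depth applies to arrays, whose number limits the precision.

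The array holds 45101 probe sets, 64 of them controls. The platform annotation names a single gene for 34945 of them, which were kept, more than 1 for 932 and none here for 9160. All 57 genes matched the RefSeq table (GRCm38.p6) by gene identifier and symbol.

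Log2 ratios (CD47 KO over WT) used the deposited signals directly, without an added constant. A gene was called when its ratio passed 2-fold, and no test was run. Named genes were those at or above the signal threshold and past 2-fold, the brightest of each class, neighbouring pairs, laminins and their linkers, up to 4 of each related list by size of change, and the brightest markers. All others, such as *Col2a1*, *Col5a1*, *Col8a2*, *Col11a2*, *Pdgfra*, *Cspg4*, *Sparc* and *P4hb*, were named after their values were seen. The genes and lists were chosen with earlier results of these data known. The alternatives changed the signal threshold, the normalization (loess fraction 0.4), the treatment of low signals, the probe set or the class. The calculation was run on simulated data with large changes planted in bright genes. That run checked the code and does not measure how often the 2-fold calls here are wrong. Python 3.11.15, numpy 2.4.6, pandas 2.3.3 and scipy 1.17.1 were used.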

Additional observations from a re-analysis of the deposited data

How the results depend on the processing

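Counts and medians were recomputed under 11 alternative settings, and single genes under the 8 to 11 of these that kept them. The medians of the basement membrane genes and the other collagens were also taken with *Col15a1* and *Col18a1* moved between them. The median of all collagen and basement membrane genes stayed below 0 (-0.52 to -0.05) and that of the fibrillar collagens stayed between -0.74 and -0.51. The basement membrane median lay between -0.44 and 0.17, with its sign set by the normalization and the threshold. The number of genes lower past 2-fold, 3 of 25, was 12 of 57 with no signal threshold. It was 6 of 31 when the array median had to be reached on at least 1 array, and 2 or 3 otherwise. The number higher, 1 of 25, was 6 of 57 with no threshold. It was 0 of 8 with the threshold at the 75th percentile and 0 of 19 with the array median required on both arrays, since *Col19a1* was dim in WT cells. With the threshold at the 75th percentile the median of the other collagens was -0.48 and rested on *Col9a3* alone.

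Over all 11016 genes that reached the threshold, 243 were higher and 410 lower. The counts were 1489 and 2221 of 18193 genes with no threshold, and 39 and 69 of 6409 with the 75th percentile. With the array median on both arrays they were 132 and 249 of 10292, and on at least 1 array 412 and 632 of 11682. They were 384 and 278 after centring, and 162 and 282 with the 25th percentile (39.3) added to both signals. Averaged over probe sets, *Col8a1* (-0.77), *Serpinh1* (-0.61), *Bgn* (-0.71) and *Sgcb* (0.02) were no longer past 2-fold and *Lamb1* was -0.06. Without probe sets named for possible cross-matches *Lamb1* was -0.28 and *Mia3* was -0.31. Each such change comes from which probe sets were read. No paired analysis was possible because each genotype has 1 array.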
